A study of Mus musculus with 6 samples.

Results

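Macrophage transcripts were followed in RNA from sorted haematopoietic stem cells (HSCs), a population in which macrophages are not the intended cell. The 10 genes examined were C1qa, C1qb, C1qc, Fcna, Cd5l, Hmox1, Slc40a1, Csf1r, Adgre1 and Vcam1, each taken as the row of the expression table that carries its symbol, so that they made up 10 of the 46959 rows. Their membership was chosen by known macrophage function together with their CPM values and log2 differences in this same comparison, so all their levels and differences are given as a description, with no test and no p-value. The study deleted Maea, which encodes a subunit of an E3 ubiquitin ligase complex, and asked how HSCs are maintained without it. MaeaCsf1r-Cre mice carry loxP-flanked Maea alleles and a Cre recombinase under the Csf1r promoter, which is active in mononuclear phagocytes and in haematopoietic stem and progenitor cells, so that the deletion was not limited to HSCs. The controls were littermates, labelled only as control. In its genotyping the study names floxed Maea mice without Cre as controls, while a transplant also used heterozygous floxed littermates with Cre. The genotype of the control mice behind these libraries is not stated. The mice were 8 weeks old by the series' design text (the study's methods give a wider range of young adult ages), and each of the 3 control and 3 MaeaCsf1r-Cre libraries was made from about 2000 sorted bone marrow HSCs, pooled from a pair of mice. The study also cites earlier work for defects of bone marrow macrophages in MaeaCsf1r-Cre mice. Since all of these samples are bulk RNA, fewer macrophages or macrophage fragments among the sorted cells and less macrophage RNA in each of them cannot be told apart. Nor can either be told apart from a change of these transcripts in the HSCs themselves or in other sorted cells.

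Resident macrophages of the bone marrow clear ageing red cells and expelled erythroid nuclei, break down heme and return its iron to the blood, and form the centre of erythroblastic islands. C1q, the recognition part of the first component of the classical complement pathway, is built from A, B and C chains that tissue macrophages make in large amounts, and ficolin A is a related collagen-like lectin that starts the lectin pathway. Heme oxygenase 1 (Hmox1) splits heme, ferroportin (Slc40a1) exports the iron, Csf1r is the receptor on which macrophages depend for survival, Cd5l is a secreted macrophage protein, Adgre1 encodes F4/80, and Vcam1 is the adhesion molecule with which island macrophages hold erythroblasts.

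As a check of the labels, Maea itself had 116 ± 7.29 CPM (the library's reads scaled to a common total) in control and 88.8 ± 12 CPM in MaeaCsf1r-Cre libraries (SD, n = 3 each), and lay lower in every MaeaCsf1r-Cre library. This is a weak check, since 6.06% of all genes tested were also lower in every one. The log2(CPM + 1) difference was -0.39. The study reports efficient deletion in stem and progenitor cells, and these reads over the whole gene were not used to measure it. The CPM steps placed the reads behind the scaling between 32966000 and 39613000 in control and between 44157000 and 60936000 in MaeaCsf1r-Cre libraries, so each MaeaCsf1r-Cre library was the deeper. A signal of 3 reads was 0.0757 to 0.0910 CPM in control and 0.0492 to 0.0679 CPM in MaeaCsf1r-Cre libraries, which covers counting error only. The 12 markers of HSCs summed to 1326 to 2205 CPM in control and 895 to 1662 CPM in MaeaCsf1r-Cre libraries, and all 12 passed the filter on low values, which asked for 1 CPM or more in 3 or more libraries.

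The DNA upstream of members that varied together is shown first, because the chains of C1q, ficolin A and Cd5l gave almost the same pattern across libraries. The promoter sequences, taken from RefSeq on GRCm38.p6, cover 4 members, C1qb, C1qc, Fcna and Cd5l. Each is written 5′ to 3′ on the gene's own strand and ends just before the most upstream start annotated in RefSeq or GENCODE. Capitals mark 2 short motifs, searched on both strands. TGCTGA, with its reverse complement TCAGCA, is the core of the half-site bound by MAF factors. GAGGAA, with its reverse complement TTCCTC, is the core bound by the myeloid factor PU.1.
C1qb (chr4:136886201-136886450, minus strand): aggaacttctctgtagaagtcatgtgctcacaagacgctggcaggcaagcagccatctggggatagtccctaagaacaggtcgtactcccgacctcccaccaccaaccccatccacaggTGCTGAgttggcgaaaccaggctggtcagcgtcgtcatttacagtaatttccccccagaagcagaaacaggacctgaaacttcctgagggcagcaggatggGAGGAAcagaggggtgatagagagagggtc
Fcna (chr2:25628031-25628224, minus strand): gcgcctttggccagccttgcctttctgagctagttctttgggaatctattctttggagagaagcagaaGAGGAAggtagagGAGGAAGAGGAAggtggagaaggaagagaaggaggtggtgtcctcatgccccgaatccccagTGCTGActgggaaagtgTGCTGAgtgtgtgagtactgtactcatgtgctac
Cd5l (chr3:87357631-87357880, plus strand): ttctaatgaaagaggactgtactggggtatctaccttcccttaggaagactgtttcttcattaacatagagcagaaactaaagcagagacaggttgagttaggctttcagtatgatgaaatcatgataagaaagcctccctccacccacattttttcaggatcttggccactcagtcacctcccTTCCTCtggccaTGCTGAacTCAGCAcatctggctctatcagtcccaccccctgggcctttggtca
Both motifs were present in all of these windows. The Fcna window, 194 bases long, held GAGGAA 3 times and TGCTGA 2 times. The 99 bases upstream of C1qc (chr4:136893066-136893164) held TTCCTC 1 time and neither form of the MAF core. The 2 motifs can share bases where one follows the other, which none of the printed matches did. Over the 250 bases before the start of 32851 promoters, 16.1% held the MAF core and 23.3% the PU.1 core on either strand. A match is a stretch of letters and was not tested as a binding site.

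The C1q genes were low but present in all control libraries and close to absent in MaeaCsf1r-Cre libraries. C1qb, the B chain, had 8.98, 3.79 and 5.37 CPM in replicates 1, 2 and 3 of the controls and 0.0328, 0 and 0.474 CPM in MaeaCsf1r-Cre replicates 1, 2 and 3. C1qc had 8.40, 2.85 and 5.43 CPM in control and 0.0328, 0.0226 and 0.203 CPM in MaeaCsf1r-Cre libraries. C1qa had 2.40, 1.21 and 1.72 CPM in control, and was at 0 in MaeaCsf1r-Cre replicates 1 and 2 and at 0.0677 CPM in replicate 3. For each chain every control library lay above every MaeaCsf1r-Cre library, control replicate 1 was the highest and replicate 2 the lowest control, and what signal remained lay mostly in MaeaCsf1r-Cre replicate 3.

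The mean of C1qb was 6.05 ± 2.66 CPM in control against 0.169 ± 0.264 CPM in MaeaCsf1r-Cre HSCs (SD, n = 3 each), a difference of -2.55 on the log2(CPM + 1) scale, which understates the change of genes this low. For C1qc the means were 5.56 ± 2.78 and 0.0862 ± 0.101 CPM (SD, n = 3 each), a difference of -2.51. C1qa had means of 1.78 ± 0.594 and 0.0226 ± 0.0391 CPM (SD, n = 3 each), a difference of -1.42. The C1qa signal corresponded to 79, 48 and 59 reads in control and to 3 reads over all MaeaCsf1r-Cre libraries, all in replicate 3. All C1q reads together were 652, 311 and 429 in control and 4, 1 and 33 in MaeaCsf1r-Cre replicates 1, 2 and 3.

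The subunits kept similar proportions in the control libraries. Per kilobase of exon, C1qb made up 52.5 to 56.8%, C1qc 24.1 to 29.9% and C1qa 15.5 to 19.0% of the C1q signal. In MaeaCsf1r-Cre replicate 3, the single library of that group with more than 4 C1q reads, the shares were 71.9%, 17.4% and 10.7% from 33 reads. The genes lie side by side on the minus strand of chromosome 4 of GRCm38, with C1qb at chr4:136880129-136886187, C1qc at chr4:136889804-136893065 and C1qa at chr4:136895917-136898803, a cluster of 18.7 kb. Among protein-coding genes within 200 kb, Epha8 was at 0 in all libraries, Ephb2 had 1.16 ± 0.659 and 0.640 ± 0.532 CPM, and Zbtb40 had 7.93 ± 1.85 and 11.8 ± 1.07 CPM in control and MaeaCsf1r-Cre libraries (SD, n = 3 each). None of these neighbours was lower in every MaeaCsf1r-Cre library. Zbtb40 was higher in every one, with 11.1 CPM or more against 9.84 CPM or less in control, beside 2.49% of all genes tested.

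Ficolin A and Cd5l followed the same pattern as C1q although they lie on other chromosomes. Fcna (chr2:25624666-25628030, minus strand) had 6.40, 2.90 and 3.83 CPM in control replicates 1, 2 and 3, was at 0 in MaeaCsf1r-Cre replicates 1 and 2, and had 0.248 CPM in replicate 3. Cd5l (chr3:87357881-87371073, plus strand) had 2.0, 0.884 and 2.19 CPM in control, was at 0 in MaeaCsf1r-Cre replicates 1 and 2, and had 0.293 CPM in replicate 3. Again no control library overlapped with a MaeaCsf1r-Cre library, and replicate 3 held all the signal of the MaeaCsf1r-Cre group. The means were 4.38 ± 1.81 and 0.0827 ± 0.143 CPM for Fcna, a log2(CPM + 1) difference of -2.27, and 1.69 ± 0.707 and 0.0977 ± 0.169 CPM for Cd5l, a difference of -1.27 (SD, n = 3 each). Over the 6 libraries the log2(CPM + 1) values of C1qa, C1qb, C1qc, Fcna and Cd5l had Pearson's r between 0.962 and 0.999 with each other. These points share libraries, depth and the difference between groups for which the genes were chosen, so the r values are a description only.

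**Figure D1:**
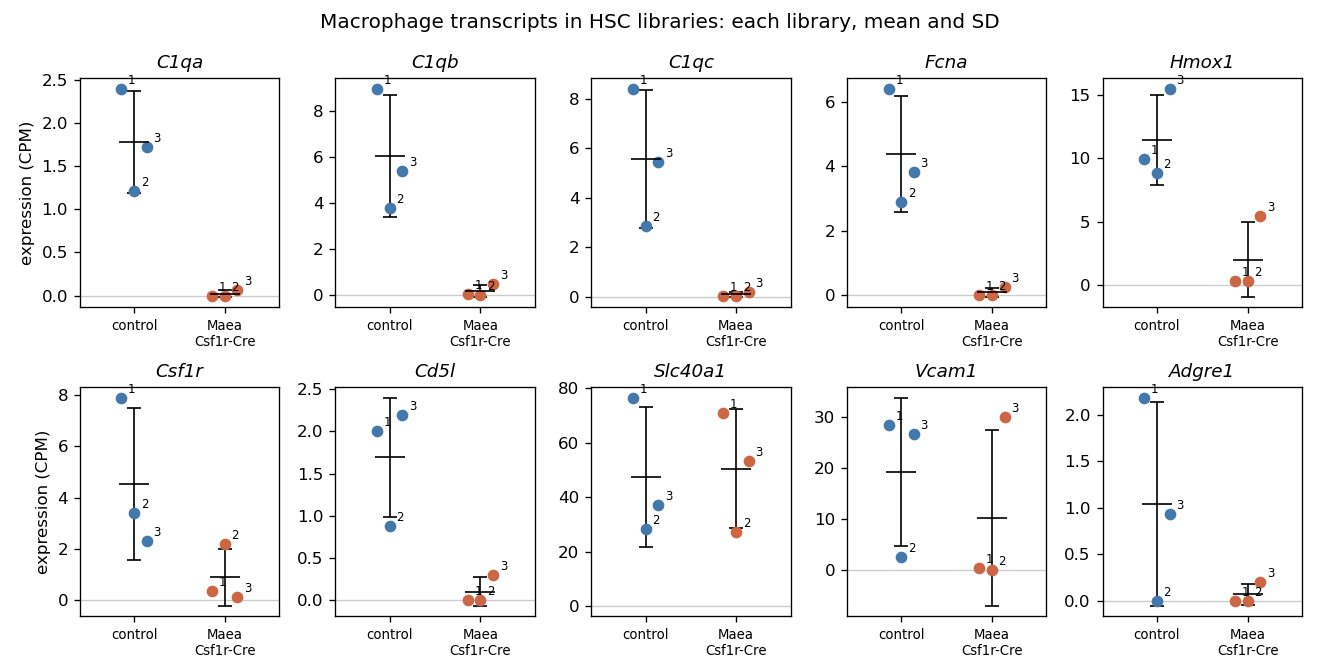
Expression of each of the 10 genes in CPM on a linear axis, with a dot per library numbered by replicate, control in blue and MaeaCsf1r-Cre in orange. Bars give the mean and SD of 3 libraries, and the 3 C1q genes, Fcna, Hmox1, Csf1r and Cd5l have no overlap between groups while Slc40a1, Vcam1 and Adgre1 do.

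The heme and iron members did not share a pattern. Hmox1 (chr8:75093621-75100589, plus strand), the enzyme that opens the heme ring, had 9.95, 8.86 and 15.5 CPM in replicates 1, 2 and 3 of the controls and 0.361, 0.317 and 5.44 CPM in MaeaCsf1r-Cre replicates 1, 2 and 3. All control libraries lay above all MaeaCsf1r-Cre libraries, but MaeaCsf1r-Cre replicate 3 stood much nearer to the controls than the other two did. The means were 11.4 ± 3.53 and 2.04 ± 2.94 CPM (SD, n = 3 each). The log2(CPM + 1) difference of -2.42 ran from -3.18 without MaeaCsf1r-Cre replicate 3 to -2.03 without its replicate 2.

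Slc40a1 (chr1:45908068-45926523, minus strand), the only known iron exporter of mammalian cells, had 76.5, 28.4 and 37.0 CPM in replicates 1, 2 and 3 of the controls and 70.9, 27.2 and 53.3 CPM in MaeaCsf1r-Cre replicates 1, 2 and 3. In both groups replicate 1 was the highest and replicate 2 the lowest, and the groups overlapped throughout. The means were 47.3 ± 25.6 and 50.5 ± 22.0 CPM (SD, n = 3 each), a log2(CPM + 1) difference of 0.12 that ran from -0.18 to 0.52 as single libraries were left out. Erythroid genes were likewise highest in replicate 1 of both groups, although in control they were lowest in replicate 3 and not, as Slc40a1 was, in replicate 2. Tfrc, the transferrin receptor, had 350, 92.7 and 72.8 CPM in control and 300, 108 and 148 CPM in MaeaCsf1r-Cre replicates 1, 2 and 3. Pearson's r with Slc40a1 over the 6 libraries was 0.891 for Tfrc, 0.914 for the erythroid factor Klf1 and 0.933 for the erythroid membrane gene Ermap. Klf1 was picked here after its values were seen. The 11 erythroid markers summed to 4212, 1522 and 960 CPM in control and to 4529, 1773 and 2130 CPM in MaeaCsf1r-Cre replicates 1, 2 and 3, 10 of them were tested and none was at 0 in all libraries. Their part in the Slc40a1 signal was not tested.

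The 3 surface proteins Csf1r, Adgre1 and Vcam1 each showed a different pattern. Csf1r, on chromosome 18, had 7.89, 3.39 and 2.31 CPM in control and 0.369, 2.18 and 0.141 CPM in MaeaCsf1r-Cre replicates 1, 2 and 3. The groups did not overlap, but the lowest control and MaeaCsf1r-Cre replicate 2 were close to each other, and the order of libraries was not that of C1q, since replicate 2 and not replicate 3 was the highest of the MaeaCsf1r-Cre group. The means were 4.53 ± 2.96 and 0.896 ± 1.12 CPM (SD, n = 3 each), a log2(CPM + 1) difference of -1.57. Only 1 of the 6 Csf1r values lay within 0.05 of a whole number of reads, so its read numbers are not given.

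Csf1r is also expressed by monocytes and their progenitors. Ccr2, a monocyte chemokine receptor picked after its values were seen, had 5.85, 1.06 and 0.117 CPM in control and 0.312, 2.79 and 0.0677 CPM in MaeaCsf1r-Cre replicates 1, 2 and 3. Like Csf1r it was highest in replicate 1 of the controls and in replicate 2 of the MaeaCsf1r-Cre group, with a Pearson's r of 0.796 over 6 libraries. None of the other monocyte markers was highest in both of these libraries. Within the MaeaCsf1r-Cre group Ly6c2 was highest in replicate 1, with 3.95 CPM. Among the controls F13a1, Ms4a6c, Ly86, Fn1 and S100a4 were highest in replicate 2. Cebpa, the transcription factor of granulocyte and monocyte progenitors, had an r of 0.900 with Csf1r. The 10 monocyte markers summed to 14.9 to 27.7 CPM in control and 13.4 to 21.4 CPM in MaeaCsf1r-Cre libraries, and the 12 neutrophil markers to 29.0 to 228 and 5.62 to 114 CPM. None of the monocyte markers, and of the neutrophil markers Mmp8 alone, was at 0 in every library. The part of either lineage in the Csf1r signal was not tested.

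Adgre1 (chr17:57358691-57483527, plus strand), the F4/80 antigen by which macrophages are sorted, was the lowest of the 10 genes per kilobase of exon. It had 2.18, 0 and 0.935 CPM in control replicates 1, 2 and 3, was at 0 in MaeaCsf1r-Cre replicates 1 and 2, and had 0.203 CPM in replicate 3. The groups overlapped because control replicate 2 had no read, which at its depth allows up to 0.0757 CPM. The means were 1.04 ± 1.10 and 0.0677 ± 0.117 CPM (SD, n = 3 each), a log2(CPM + 1) difference of -0.79, which was -0.39 without control replicate 1 and -1.22 without control replicate 2.

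Vcam1 (chr3:116109949-116129688, minus strand) had 28.5, 2.60 and 26.7 CPM in replicates 1, 2 and 3 of the controls and 0.525, 0 and 30.0 CPM in MaeaCsf1r-Cre replicates 1, 2 and 3. It was high in 3 libraries and low in the other three, and the highest value of all belonged to a MaeaCsf1r-Cre library. The log2(CPM + 1) difference of -1.99 ran from -3.54 without MaeaCsf1r-Cre replicate 3 to -1.06 without its replicate 2. Endothelium also expresses Vcam1, and 6 of the 10 endothelial markers, Cdh5, Kdr, Stab2, Flt4, Ramp2 and Plvap, were higher in the 3 libraries with high Vcam1 than in the other three. The remaining markers, Pecam1, Emcn, Tek and Egfl7, were higher in control replicate 2 than in control replicate 1 and did not follow Vcam1 in this way. Stab2, the scavenger receptor of sinusoidal endothelium, had 10.1, 0.202 and 41.3 CPM in control and 0.427, 0.362 and 66.2 CPM in MaeaCsf1r-Cre replicates 1, 2 and 3. Pearson's r with Vcam1 over the 6 libraries was 0.909 for Stab2, 0.903 for Cdh5 (VE-cadherin) and 0.921 for Plvap, a protein of fenestrated vessels. Stab2 and Cdh5 were picked after their values were seen.

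All 10 endothelial markers passed the filter and none was at 0 in all libraries, and their sum was 193, 160 and 336 CPM in control and 104, 135 and 440 CPM in MaeaCsf1r-Cre replicates 1, 2 and 3. The macrophage mannose receptor Mrc1, also made by sinusoidal endothelium, was among the genes most like Vcam1, with an r of 0.963 and with 5.40, 0.505 and 9.93 CPM in control and 0.164, 0.226 and 10.8 CPM in MaeaCsf1r-Cre replicates 1, 2 and 3. MaeaCsf1r-Cre replicate 3 therefore held the largest Vcam1 and Mrc1 values of the series while its C1q values were below those of every control. The part of endothelial RNA in the Vcam1 signal was not tested.

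**Figure D2:**
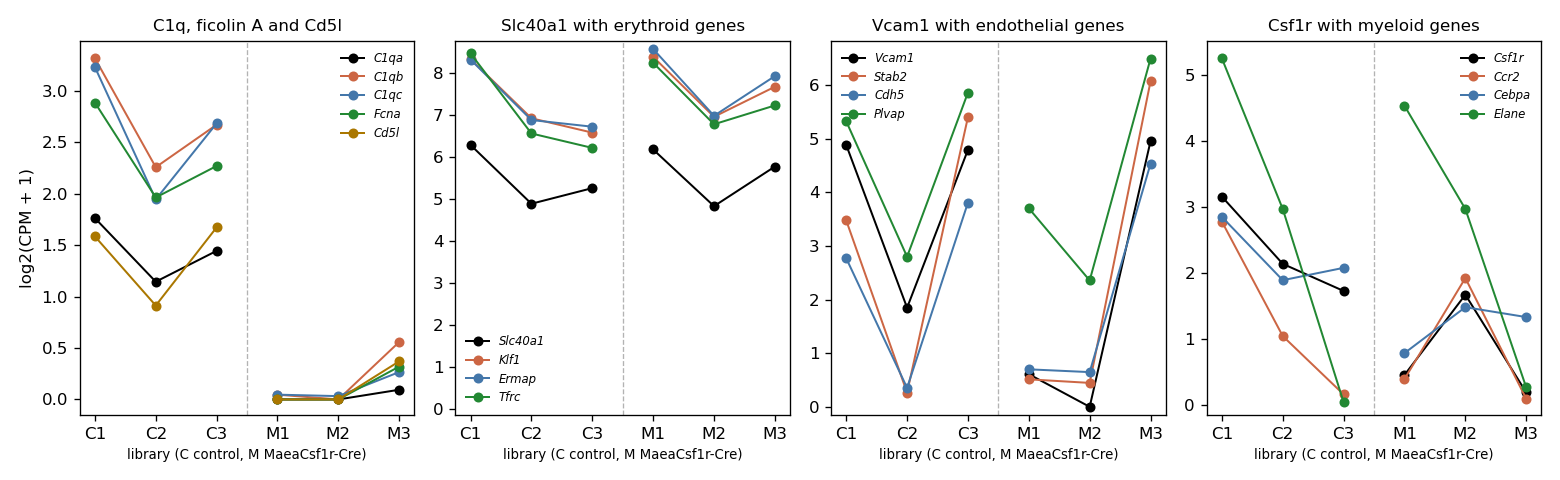
Values as log2(CPM + 1) in control libraries 1 to 3 (C1 to C3) and MaeaCsf1r-Cre libraries 1 to 3 (M1 to M3) for 4 sets of genes. C1q, Fcna and Cd5l are near 0 in M1 and M2. Slc40a1, Klf1, Ermap and Tfrc are each highest in C1 among controls and in M1 in the other group. The lowest control is C2 for Slc40a1 and C3 for Klf1, Ermap and Tfrc. Vcam1 runs with Stab2, Cdh5 and Plvap and is high in C1, C3 and M3, and Csf1r is highest in C1 and, within its group, in M2.

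Across the list, 7 of the 10 genes were lower in every MaeaCsf1r-Cre library than in every control library, beside 6.06% of the 12955 genes tested and 6.66% of the 20462 rows above 0 in 3 or more libraries, and 9 of the 10 were lower by group mean, beside 60.9%. The comparison that gave these counts is the one by which the genes were chosen, so nothing is read from the excess. With the libraries rescaled by median ratios or by quantiles the count was 6. The median log2(CPM + 1) difference was -1.78 over all 10 genes and -0.06 over the genes tested. Of the 10 genes, 8 passed the filter on low values, and 4 of these, C1qa, C1qb, C1qc and Fcna, passed it through the control libraries alone. Cd5l and Adgre1 did not pass.

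Levels set per kilobase of exon put the members in an order. In control libraries Hmox1 had 6.52 CPM per kilobase, C1qb 5.56, Slc40a1 5.25, Fcna 3.19, C1qc 2.88, Vcam1 2.17, C1qa 1.71, Cd5l 0.831, Csf1r 0.785 and Adgre1 0.321 CPM per kilobase. Over the control libraries neighbours in this order overlapped, except for C1qa and Cd5l, which did not. In MaeaCsf1r-Cre libraries Slc40a1 had 5.61, Hmox1 1.16 and Vcam1 1.15 CPM per kilobase, and the other seven had less than any of these, down to 0.0209 CPM per kilobase for Adgre1. Control replicate 1 was the highest control for 8 of the members and control replicate 2 the lowest for 9, and MaeaCsf1r-Cre replicate 3 was the highest of its group for 8.

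The genes most like the mean profile of the members were sought among 406 genes whose log2(CPM + 1) values spanned at least 2 over the 6 libraries. The members were chosen by their difference between these groups, so their mean profile carries that difference. The closest of many genes over 6 libraries were picked, so the r values are a description only. Among the closest were the xenobiotic-metabolising enzyme Cyp1a1 with a Pearson's r of 0.938, the progesterone receptor Pgr with 0.918, Cebpa with 0.914 and the chemokine Ccl9 with 0.901. Among those that followed were the retinoic acid hydroxylase Cyp26b1 with 0.861, Myl10 with 0.857 and Dntt, the DNA polymerase of lymphoid progenitors, with 0.848. Ccl9 had 24.0, 7.02 and 4.79 CPM in control and 0.837, 1.77 and 3.90 CPM in MaeaCsf1r-Cre replicates 1, 2 and 3.

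Genes that work with the members were taken from 6 lists without the members themselves. Together the lists held 155 genes, of which 154 were in the table and 100 passed the filter. By limma's linear model over all genes tested, none reached an adjusted p of 0.05 (0 of 100). At the unadjusted threshold of 0.05 there were 10 lower and 3 higher genes, or 10% and 3.0% of the 100, beside 3.19% and 0.803% of all genes tested. With the replicate number as a block the adjusted count was again 0, and the unadjusted threshold took in 22 lower and 7 higher genes, beside 10.8% and 3.11% of all genes. Every MaeaCsf1r-Cre library lay below every control library for 9 of the 100 genes and above it for 3, beside 6.06% and 2.49% of all genes tested. All gene lists, here and below, were chosen with earlier results of these data known. Nothing is therefore read from an excess of a list over the share of all genes. Only 1 gene of all those tested passed the adjusted threshold, in the higher direction (0.00772%), and these p-values measure the spread between libraries of pooled mice, part of which may be technical.

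Among 46 other genes of macrophage identity, 23 were tested, 4 had an unadjusted p under 0.05 in the lower and 1 in the higher direction, and the median log2(CPM + 1) difference was -0.48. With the replicate block these numbers were 8 and 2. Fcer1g, the signalling chain of activating Fc receptors, had 13.3, 13.3 and 12.6 CPM in control and 2.64, 3.87 and 7.69 CPM in MaeaCsf1r-Cre replicates 1, 2 and 3, with no overlap and a log2(CPM + 1) difference of -1.39 (standard error 0.31, limma adjusted p = 0.967, or 0.173 with the block). Tyrobp, the adaptor DAP12, had 3.76, 2.75 and 2.16 CPM in control and 0.656, 1.2 and 0.767 CPM in MaeaCsf1r-Cre replicates 1, 2 and 3, again with no overlap. Cd163, the receptor for haemoglobin bound to haptoglobin, went from 7.33 ± 1.51 to 4.32 ± 0.416 CPM, and Il18bp from 9.81 ± 3.93 to 20.2 ± 5.31 CPM (SD, n = 3 each). Among the 23 tested, 3 were lower and 1 higher in every MaeaCsf1r-Cre library, beside 6.06% and 2.49% of all genes tested. Of all 46 genes, 10 were lower in every MaeaCsf1r-Cre library, beside 6.66% of rows above 0 in 3 or more libraries. Of these 10, 3 were tested and 7, Itgax at 0.152 CPM or less among them, lay below the filter. Among the latter, Clec7a (dectin 1) had 0.667, 2.25 and 4.03 CPM in control and 0.0492, 0 and 0.541 CPM in MaeaCsf1r-Cre replicates 1, 2 and 3, and Hpgd, a prostaglandin-degrading enzyme, had 3.43, 0.707 and 3.13 CPM in control and 0, 0.181 and 0.158 CPM. Aif1 and Ms4a7 had 0.353 to 1.08 and 0.379 to 0.759 CPM in control and at most 0.0164 and 0.0492 CPM in MaeaCsf1r-Cre libraries. These 4 genes and the following were picked after their values were seen. Of the 23 tested genes, 20 were lower by group mean, beside 60.9% of all genes tested. Emilin2 went the other way, with 52.3 ± 22.6 CPM in control and 82.1 ± 24.0 CPM in MaeaCsf1r-Cre libraries, with overlap (SD, n = 3 each). Trem2, below the filter, was also higher by mean, with 0.0915 ± 0.0329 and 0.646 ± 0.637 CPM (SD, n = 3 each). Clec4f, a marker of liver macrophages, was at 0 in all libraries, Vsig4 had 0.0328 CPM in 1 library, and Marco 0.0876 CPM in 1 library. Timd4 had 0.121, 0 and 0.321 CPM and Siglec1, the sialoadhesin CD169, had 0.880, 0 and 1.23 CPM in control replicates 1, 2 and 3, and in MaeaCsf1r-Cre libraries Timd4 was at 0 throughout and Siglec1 had 0.197, 0.0453 and 0 CPM. The lysosomal protein Cd68 had 5.58 to 6.79 CPM in control and 2.36 to 6.30 CPM in MaeaCsf1r-Cre libraries, with overlap.

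The other heme and iron genes gave no common direction. Of 17 tested, 1 had an unadjusted p under 0.05, and their median log2(CPM + 1) difference was 0.03. With the replicate block, 3 lower and 1 higher had an unadjusted p under 0.05. The 1 gene was Lrp1, which takes up heme bound to hemopexin, with 3.34, 3.69 and 1.78 CPM in control and 0.935, 0.747 and 0.699 CPM in MaeaCsf1r-Cre replicates 1, 2 and 3, and its adjusted p was 0.967 in limma and 0.198 with the block. Ncoa4, the ferritinophagy receptor, had 113 ± 18.1 and 83.5 ± 21.7 CPM (SD, n = 3 each). Hamp, the hormone that closes ferroportin, was at 0 in all libraries.

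Complement genes other than C1q lay on both sides of 0. Of 13 tested, 2 lower and 2 higher genes had an unadjusted p under 0.05, or 3 and 2 with the block, and the median log2(CPM + 1) difference was 0.08. Cfp, which encodes properdin, the stabiliser of the alternative pathway convertase, had 7.16, 7.09 and 7.22 CPM in control and 1.62, 2.51 and 4.49 CPM in MaeaCsf1r-Cre replicates 1, 2 and 3. C4b, the substrate of the C1 protease, had 0.910, 1.36 and 0.935 CPM in control and 5.14, 5.12 and 8.07 CPM in MaeaCsf1r-Cre replicates 1, 2 and 3, opposite in direction to the C1q chains. Its log2(CPM + 1) difference was 1.76 (standard error 0.24, limma adjusted p = 0.210, or 0.0842 with the block), the smallest adjusted p of the lists. C4a, its close copy, had 0.131 CPM or less in each library, and reads that fit both genes could have been counted for either. Itgb2, the shared chain of the complement receptors, had 21.5 ± 2.32 and 32.0 ± 6.68 CPM (SD, n = 3 each). Fcnb, the other ficolin gene, was at 0 in all libraries but 1, where it had 0.131 CPM, and 7 of the 35 complement genes were at 0 in all libraries.

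Among 20 tested transcription factors of macrophages, 3 had an unadjusted p under 0.05, all lower, or 6 lower and 1 higher with the block, and the median log2(CPM + 1) difference was -0.32. Spic, which drives the red pulp and bone marrow macrophage programme of heme recycling, had 2.67, 1.49 and 2.48 CPM in control and 0.591, 0.294 and 1.56 CPM in MaeaCsf1r-Cre replicates 1, 2 and 3. As with Hmox1, MaeaCsf1r-Cre replicate 3 was the highest of its group, here just above control replicate 2. Irf5 had 16.7 ± 3.14 and 9.06 ± 4.01 CPM, and Cebpa 4.03 ± 1.88 and 1.34 ± 0.554 CPM (SD, n = 3 each), each lower in every MaeaCsf1r-Cre library. Spi1, which encodes PU.1, had 39.0, 60.4 and 41.0 CPM in control and 24.5, 45.9 and 47.3 CPM in MaeaCsf1r-Cre replicates 1, 2 and 3, with overlap.

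Of 16 tested genes of Csf1r ligands and signalling, 2 had an unadjusted p under 0.05, both lower, or 3 lower and 1 higher with the block, and the median log2(CPM + 1) difference was -0.16. They were Tyrobp and the Src family kinase Fgr, which had 2.36 ± 0.609 and 1.04 ± 0.666 CPM (SD, n = 3 each). The ligand Csf1 had 5.10, 11.1 and 6.89 CPM in control and 4.40, 2.92 and 7.40 CPM in MaeaCsf1r-Cre replicates 1, 2 and 3, and overlapped between groups. Of 15 genes of Vcam1 binding and island adhesion, all were tested and 1 had an unadjusted p under 0.05, or 3 with the block, with a median log2(CPM + 1) difference of -0.09. Gas6, which bridges dying cells to phagocyte receptors, was that gene and had 3.18, 10.9 and 7.62 CPM in control and 0.361, 1.18 and 5.80 CPM in MaeaCsf1r-Cre replicates 1, 2 and 3, with overlap. The subunits of the Vcam1 receptor on erythroblasts and HSCs, Itga4 and Itgb1, had 71.8 to 98.8 and 213 to 237 CPM in control and 73.1 to 90.6 and 211 to 229 CPM in MaeaCsf1r-Cre libraries, while Icam4, a further island ligand, had 20.1 ± 3.20 and 25.4 ± 3.30 CPM (SD, n = 3 each).

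**Figure D3:**
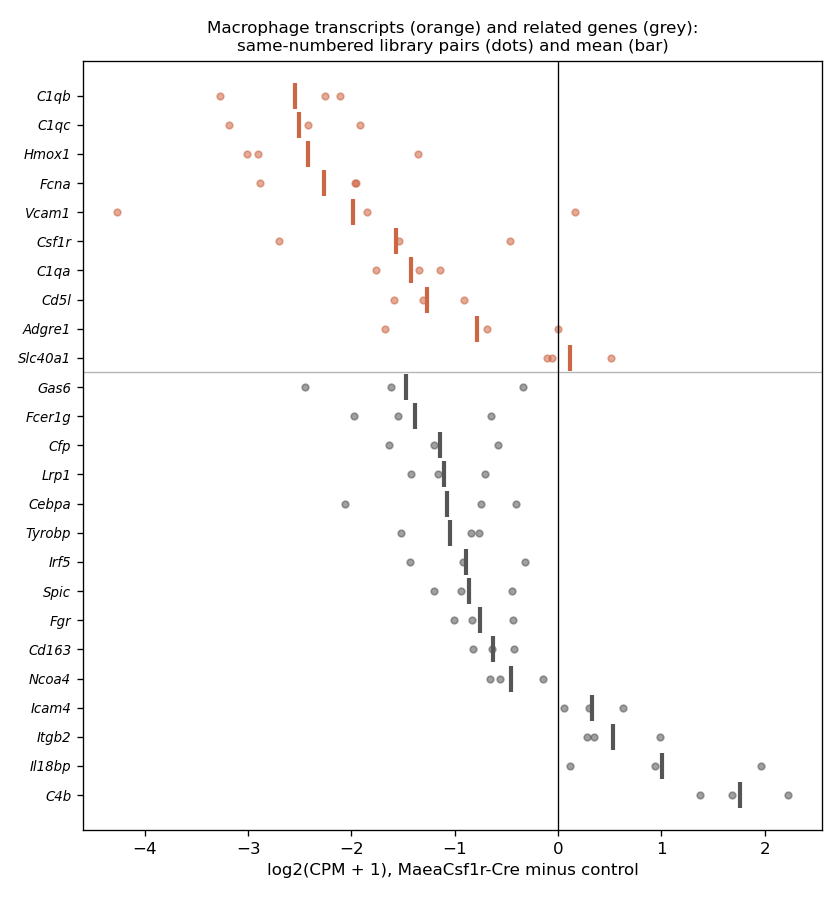
Difference in log2(CPM + 1), MaeaCsf1r-Cre minus control, for the 10 macrophage transcripts (orange) and 15 genes of the related lists (grey), with a dot for each pair of libraries of the same replicate number and a bar at the mean. C1qb has the lowest mean at -2.55, Slc40a1 sits at 0.12, Vcam1 has pairs on both sides of 0, and C4b is the highest at 1.76.

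Markers of other cell types were measured beside the members. All 10 members together summed to 153, 54.9 and 101 CPM in control and to 72.2, 29.7 and 90.3 CPM in MaeaCsf1r-Cre replicates 1, 2 and 3, and overlapped between groups. For C1qa, C1qb, C1qc, Fcna, Cd5l and Hmox1, which were grouped after their values were seen and have no overlap singly, the sum was 38.1, 20.5 and 34.0 CPM in control and 0.427, 0.340 and 6.72 CPM in MaeaCsf1r-Cre replicates 1, 2 and 3. Of the lists in the plot of summed levels, the B cell and plasma cell markers also had no overlap, with 42.2 to 66.0 CPM in control and 16.8 to 33.5 CPM in MaeaCsf1r-Cre libraries and with Ms4a1, Pax5 and Igll1 at 0. Sums of T and NK cell markers were 43.2 to 66.7 and 43.4 to 87.6 CPM with Cd3g, Cd8a and Gzma at 0, those of dendritic cells 105 to 186 and 93.1 to 107 CPM with Siglech and Cd209a at 0, and those of stromal cells 27.1 to 38.9 and 19.1 to 49.5 CPM. Megakaryocyte markers summed to 683 to 1724 and 469 to 951 CPM, and mast cell and basophil markers to 131 to 169 and 124 to 171 CPM. No gene of the cell type lists had an adjusted p under 0.05 in limma (0 genes, smallest 0.489, or 0.141 with the block). Of 61 genes of these lists tested, 4 were lower at the unadjusted threshold of 0.05, Ighm, Sdc1, Flt3 and Cd4. In the higher direction there was 1, Fcer1a, and the shares of all genes tested were 3.19% and 0.803%. With the replicate block there were 15 lower and 5 higher genes of the 61, beside 10.8% and 3.11% of all genes tested. The 15 included 7 of the 12 HSC markers (58.3%, beside the same 10.8%). The part of these lineages in the member values was not tested.

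**Figure D4:**
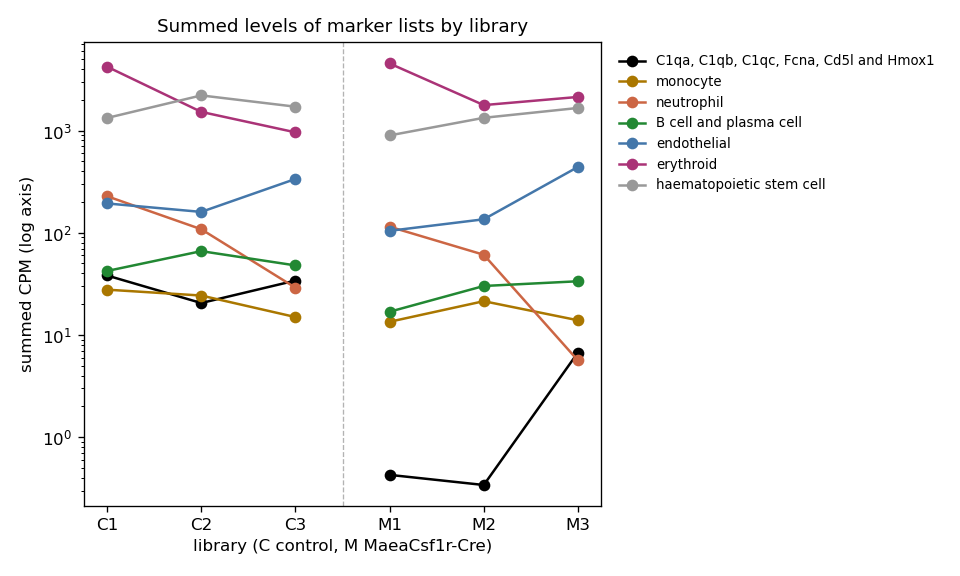
Summed CPM of marker lists on a log axis in control libraries 1 to 3 (C1 to C3) and MaeaCsf1r-Cre libraries 1 to 3 (M1 to M3). The sum of the 3 C1q genes, Fcna, Cd5l and Hmox1, 6 members without overlap, is 20.5 to 38.1 in control and 0.340 to 6.72 in MaeaCsf1r-Cre libraries (all 10 members, not plotted, give 54.9 to 153 and 29.7 to 90.3), while the endothelial sum is highest in M3 and the erythroid sum in C1 and M1.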

How the data were processed

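Per the study's methods, HSCs were sorted from flushed bone marrow, SMART-Seq v4 and Nextera XT libraries were sequenced single-end, and the authors used STAR 2.5.3a with the mm10 genome, counted reads over Ensembl transcripts and normalised the counts with Partek Flow. The deposited unit is CPM with 0.0001 added to every value, which was subtracted here. Reads behind the scaling were estimated from the steps between low CPM values. Only 70.5 to 72.7% of low values lay within 0.02 of a whole read, so no count test was used. The counter's use of strand is not given in the sources used here.

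The 10 members and all gene lists were chosen with earlier results of these data known. The 12955 genes that had 1 CPM or more in 3 or more libraries entered the test, on log2(CPM + 1), with limma 3.58.1 in R 4.3.3, MaeaCsf1r-Cre against control, two-sided, with a mean-variance trend and Benjamini-Hochberg adjustment at 0.05. The procedure was tested on simulated data. Replicate numbers come from the sample titles. Deviations from the group means correlated between libraries of the same number (r of 0.627, 0.523 and 0.397 over genes), so blocked values are given where they change a count by over 1.5 times. Lists held genes of macrophage identity, heme and iron, complement, transcription factors, Csf1r signalling and Vcam1 adhesion, and markers of other cell types. Named genes were the members, related genes with an unadjusted p under 0.05 or the 2 smallest p in a list, the 2 highest and up to 3 non-overlapping genes per cell type, and the 8 most like the members, of which 1 is not reported here. Positions and exon lengths come from GENCODE on GRCm38, the build of the files, and 10 of 10 members matched. Alternatives were a pseudocount of 0.1, median ratio and quantile rescaling, no filter, a CPM filter of 10, the replicate block, no trend and leaving out each library. Figures were drawn with matplotlib 3.10.9 in Python 3.11.15.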

Additional observations from a re-analysis of the deposited data

How the results depend on the processing

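The members' median log2(CPM + 1) difference of -1.78 became -3.43 with a pseudocount of 0.1, by construction of the scale, and ran from -2.07 to -1.36 as single libraries were left out. The count of members lower in every MaeaCsf1r-Cre library, 7, lay between 6 and 8 under every alternative run. Of the members, Slc40a1 alone changed sign, in 2 of the fits that left out a library. The count of all genes past an adjusted p of 0.05 was 1, and was 0 with a CPM filter of 10 and 0 to 1 without single libraries. Of the related genes, 10 were lower at an unadjusted p under 0.05, against 19 with no filter, 2 with a CPM filter of 10 (fewer genes tested), 22 with the replicate block, and 5 to 18 without single libraries (5 without control replicate 2 or 3, 6 without MaeaCsf1r-Cre replicate 1, 18 without MaeaCsf1r-Cre replicate 3). In the higher direction there were 3, against 7 with the replicate block and 2 to 6 without single libraries, with 6 without control replicate 1. Where no construction is named, the cause was not tested. The replicate block also moved the cell type markers at that threshold from 4 to 15 lower and from 1 to 5 higher, and changed no count of adjusted calls. Depth limits the members at or below 3 reads, which were all 3 C1q genes, Fcna, Cd5l and Adgre1 in MaeaCsf1r-Cre replicates 1 and 2, C1qa in replicate 3, Vcam1 in replicate 2, and Adgre1 in control replicate 2.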

Other observations

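In the marker lists of other cell types a few genes had no overlap between groups. Ighm, the immunoglobulin heavy chain of IgM, had 17.9 ± 11 CPM in control and 1.12 ± 1.02 CPM in MaeaCsf1r-Cre HSCs (SD, n = 3 each), a log2(CPM + 1) difference of -3.08 (standard error 0.50, limma adjusted p = 0.489, or 0.141 with the replicate block), and Sdc1, the plasma cell proteoglycan CD138, had 9.28 ± 0.998 and 4.67 ± 1.68 CPM (SD, n = 3 each). Fcer1a, the alpha chain of the IgE receptor, lay higher in every MaeaCsf1r-Cre library, with 0.614 ± 0.252 and 3.40 ± 1.94 CPM (SD, n = 3 each, limma adjusted p = 0.967). None of these passed the adjusted threshold.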
